A study of Saccharomyces cerevisiae with 6 samples.

Results

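The genes described are the 5 that encode GABA uptake, GABA breakdown, glutamate decarboxylation and the pathway's own activator in budding yeast: UGA1, UGA2, UGA3, UGA4 and GAD1. They were chosen by gene symbol in the array's platform annotation, and all 5 were found, each with 1 spot, among 5711 named genes. Transcript levels were compared between ssy1KO, ssy1T9 and s288c wt, all Saccharomyces cerevisiae, on 6 arrays in 2 colours, with each of the 3 pairs of strains on 2 arrays in opposite dye orientations. SSY1 encodes the amino acid sensor of the plasma membrane. By its name ssy1KO lacks that gene; ssy1T9 is described no further in the labels, while the series title speaks of a naturally occurring variant that acts on expression. The background s288c is written beside wt in the labels and beside neither mutant in the array labels, and the design text places all 3 strains in S288C. The sources used here do not state the growth medium, the growth phase or how many cultures were grown.

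GABA (gamma-aminobutyrate) serves yeast as a nitrogen source and is also made inside the cell. Gad1, glutamate decarboxylase, makes GABA from glutamate; Uga1, GABA transaminase, passes its amino group to 2-oxoglutarate and leaves succinate semialdehyde; Uga2, succinate semialdehyde dehydrogenase, oxidises that to succinate, so that the shunt bypasses a stretch of the citric acid cycle. Uga4 is the GABA permease, induced by GABA and held down when preferred nitrogen sources are present. Uga3 is a zinc cluster activator that, together with Dal81, drives UGA1, UGA2 and UGA4 in the presence of GABA. Dal81 also serves the amino acid permease genes that answer to the Ssy1 sensor.

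Values are log2 ratios of one strain over another, with the base assumed and the sign taken as likely (see the processing), after each array was centred on the median of all genes. Array 1 of each mutant with wt carried wt in Cy5 and array 2 carried the mutant in Cy5; array 1 of the mutant pair carried ssy1T9 in Cy5 and array 2 ssy1KO. SSY1 itself read lower in ssy1KO on 4 of 4 arrays that held that strain, in both dye orientations. That reading set the sign common to all arrays and is therefore no separate check of the overall direction. The RNA is that of whole cultures, so a change in every cell and a change in a fraction of cells cannot be told apart. The labels name no separate cultures or RNA extracts behind the 2 arrays of each pair, and p-values therefore reflect array-to-array spread that could be purely technical.

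In ssy1KO, 3 of the 5 genes were higher than in wt: UGA3 was 2.02-fold, UGA1 1.41-fold and UGA2 1.26-fold higher. The permease gene UGA4 and the decarboxylase gene GAD1 lay at 0.931-fold and 0.974-fold of wt and did not pass the test. In ssy1T9 the pattern had the same members: UGA3 was 1.87-fold, UGA1 1.31-fold and UGA2 1.26-fold higher, while UGA4 lay at 0.995-fold and GAD1 at 1.08-fold of wt. A gene is called where limma's Benjamini-Hochberg adjusted p over all genes was under 0.05. By that rule 24.3% of all genes were called in ssy1KO over wt, 13.8% as higher and 10.5% as lower, and 26.2% in ssy1T9 over wt, 14.1% as higher and 12.1% as lower. None of the 5 was called lower in either mutant, with 0 also at an unadjusted p under 0.05. Both comparisons share the wt strain, so they are not independent of each other.

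UGA3, the gene of the activator, moved most. On the arrays of ssy1KO over wt it read 1.2 and 0.89, and on those of ssy1T9 over wt 0.91 and 0.84. All 4 readings lay well away from 0, and the arrays of ssy1KO spanned a wider range than those of ssy1T9. On the arrays of ssy1KO over ssy1T9 it read 0.07 and 0.08, close to no difference. The fitted log2 difference was 1.01 in ssy1KO over wt (SE 0.079, limma adjusted p = 3.2e-10) and 0.91 in ssy1T9 over wt (SE 0.079, limma adjusted p = 2.4e-09). The 95% intervals ran from 1.80-fold to 2.26-fold in ssy1KO and from 1.67-fold to 2.10-fold in ssy1T9. UGA3 ranked 50th from the highest of 5711 genes in ssy1KO and 62nd in ssy1T9.

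UGA1, the transaminase gene, rose less. It read 0.42 and 0.75 in ssy1KO over wt, and 0.36 and 0.23 in ssy1T9 over wt. Every reading of a mutant over wt was above 0, but the 2 arrays of ssy1KO stood 0.33 apart, and the scatter of UGA1 around the fit exceeded that of 81.9% of genes. On the arrays of the mutants against each other it read -0.04 and 0.08. The fit gave 0.50 in ssy1KO (SE 0.085, limma adjusted p = 1.0e-04) and 0.39 in ssy1T9 (SE 0.085, limma adjusted p = 0.0014). The 95% intervals were 1.25-fold to 1.59-fold and 1.16-fold to 1.47-fold. Tested against a 1.2-fold change instead of no change, UGA1 did not pass in ssy1KO (limma treat, adjusted p = 0.113) or in ssy1T9 (adjusted p = 0.848).

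UGA2, the dehydrogenase gene that finishes the pathway, rose by a small and even amount. It read 0.25 and 0.45 in ssy1KO over wt, and 0.26 and 0.37 in ssy1T9 over wt. The readings of the 2 mutants overlapped, and all 4 were positive. Between the mutants it read -0.05 and 0.00. The fit gave 0.33 in ssy1KO (SE 0.077, limma adjusted p = 0.00258) and 0.34 in ssy1T9 (SE 0.077, limma adjusted p = 0.002). UGA2 fitted more closely than most genes, since 5.78% of genes had a smaller scatter. Its 95% intervals, 1.13-fold to 1.40-fold in ssy1KO and 1.13-fold to 1.41-fold in ssy1T9, reach below 1.2-fold, and it did not pass the test against a 1.2-fold change in either mutant (limma treat, adjusted p = 1 in both).

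UGA4, the permease gene, showed no call in any comparison. It read 0.06 and -0.19 in ssy1KO over wt, and 0.17 and -0.26 in ssy1T9 over wt. In both pairs the array with wt in Cy5 was the positive one and the array with the mutant in Cy5 the negative one, so the sign followed the dye orientation. Between the mutants UGA4 read -0.10 and -0.17, both below 0. The dye term of the fit for UGA4 was -0.12 (SE 0.056, limma adjusted p = 0.173). With that term in the fit, UGA4 lay at -0.10 in ssy1KO over wt (SE 0.080, limma adjusted p = 0.375) and at -0.01 in ssy1T9 over wt (SE 0.080, limma adjusted p = 0.965). The 95% intervals, 0.830-fold to 1.04-fold in ssy1KO and 0.888-fold to 1.12-fold in ssy1T9, lie below the lower bound for UGA3 in both mutants and below that for UGA1 in both. For UGA2 the lower bound, 1.13-fold in each mutant, is also above them.

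GAD1, the decarboxylase gene at the head of the shunt, was not called either. It read 0.15 and -0.15 in ssy1KO over wt, and 0.28 and -0.14 in ssy1T9 over wt. As for UGA4, the sign changed with the dye orientation in both pairs, and the dye term was -0.11 (SE 0.058, limma adjusted p = 0.259). The fit gave -0.04 in ssy1KO (SE 0.083, limma adjusted p = 0.775) and 0.11 in ssy1T9 (SE 0.083, limma adjusted p = 0.373). The 95% intervals were 0.865-fold to 1.10-fold in ssy1KO and 0.958-fold to 1.21-fold in ssy1T9. Without centring of the arrays, which moves the median of all genes to 0.17 in ssy1T9 over wt, GAD1 read 0.28 in ssy1T9 and was called (limma adjusted p = 0.0286), at 0.11 above that median.

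**Figure D1:**
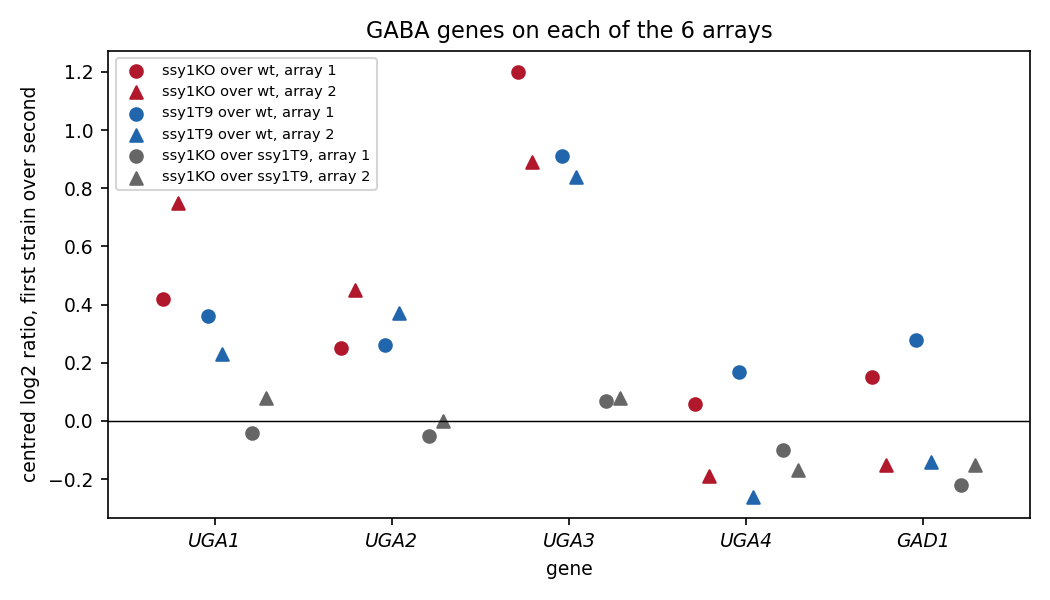
Centred log2 ratio (vertical axis, first-named strain over second) of the 5 GABA genes (horizontal axis), 1 point per array; circles are array 1 and triangles array 2 of each pair. The mutant over wt points of UGA3 lie between 0.84 and 1.2 and those of UGA1 and UGA2 between 0.23 and 0.75, while those of UGA4 and GAD1 lie on both sides of 0.

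**Figure D2:**
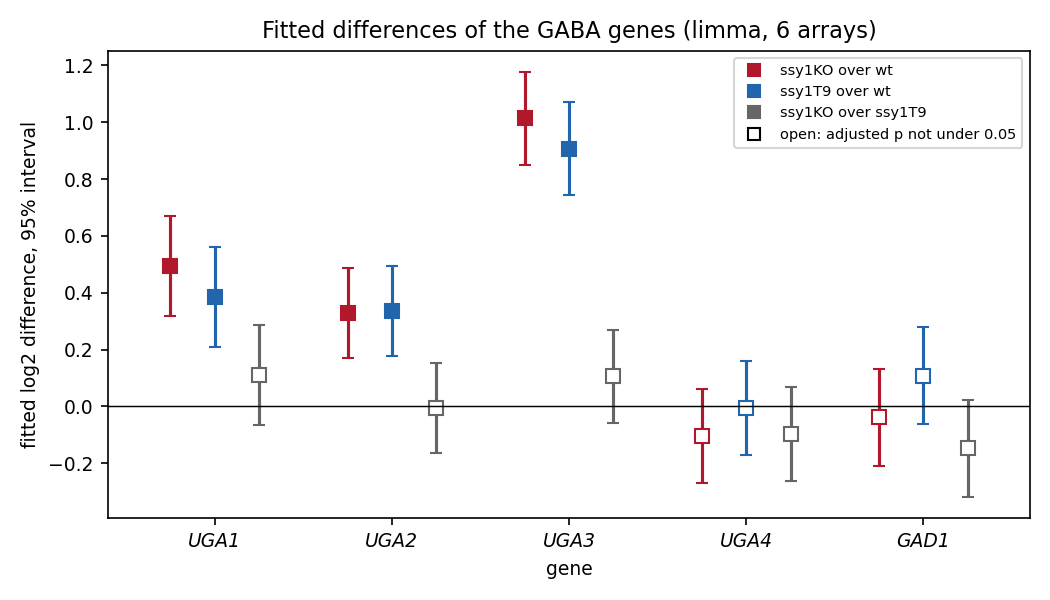
Fitted log2 difference (vertical axis) of the 5 GABA genes in ssy1KO over wt, ssy1T9 over wt and ssy1KO over ssy1T9, with 95% confidence intervals from limma over 6 arrays; filled squares have an adjusted p under 0.05. UGA3 at 1.01 and 0.91, UGA1 at 0.50 and 0.39 and UGA2 at 0.33 and 0.34 are filled for the mutants over wt, and no square for ssy1KO over ssy1T9 is filled.

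The mutants were also set against each other, which asks whether the deletion and the ssy1T9 allele differ in their effect on these genes. By limma 0 of the 5 genes were called, with 0 at an unadjusted p under 0.05, and in that comparison 0.298% of all genes were called, 0.14% as higher and 0.158% as lower in ssy1KO. The ordinary linear model without moderation also called 0. The log2 difference in ssy1KO over ssy1T9 was 0.11 for UGA3 (95% interval -0.06 to 0.27), 0.11 for UGA1 (-0.07 to 0.29) and -0.01 for UGA2 (-0.16 to 0.15). For UGA4 it was -0.10 (-0.26 to 0.07) and for GAD1 -0.15 (-0.32 to 0.02), whose arrays read -0.22 and -0.15, below 0 in both dye orientations (limma adjusted p = 0.936). The widest differences these intervals still hold are, in ssy1KO over ssy1T9, 1.22-fold for UGA1 and 1.21-fold for UGA3 at the upper bounds, and 0.834-fold for UGA4 and 0.803-fold for GAD1 at the lower bounds.

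The loop of strain pairs gives each difference along a second route. For UGA3 in ssy1KO over wt the mean of the 2 direct arrays was 1.05, and the route through ssy1T9 gave 0.95. For UGA2 these were 0.35 and 0.29, also close. UGA1 was less even: 0.585 directly and 0.315 through ssy1T9 for ssy1KO over wt, and 0.295 directly and 0.565 through ssy1KO for ssy1T9 over wt. For UGA1 ssy1KO read higher than ssy1T9 on the direct arrays with wt, while the arrays of the mutants against each other read -0.04 and 0.08.

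Pearson correlations over the 6 arrays were taken on Cy5 over Cy3 ratios, whose sign turns with the dye orientation. They were 0.974 between UGA2 and UGA3, 0.942 between UGA1 and UGA2 and 0.927 between UGA1 and UGA3. On that scale genes that are higher in both mutants correlate strongly by design, so these values show no shared course beyond that. UGA4 and GAD1 correlated with each other at 0.812, and UGA4 with UGA1, UGA2 and UGA3 at -0.314, -0.379 and -0.412. For UGA4 and GAD1 only array 1 of the mutant pair lay above 0 on that scale, at 0.10 and 0.22. The other arrays lay between -0.26 and -0.06 for UGA4 and between -0.28 and -0.14 for GAD1. Their correlation was not taken without array 1 of the mutant pair, so it does not show that the genes vary together. The signs for UGA4 belong to that scale, and no correlation was taken on the ratios of first strain over second. All 6 points of each correlation share the 3 strains and the dye orientations, and the values are given as descriptions. In the order of rise in ssy1KO, the 95% interval of UGA3 does not meet that of UGA1, those of UGA1 and UGA2 overlap, that of UGA2 does not meet that of GAD1, and those of GAD1 and UGA4 overlap. In ssy1T9 the order is the same, and there the interval of GAD1 also overlaps those of UGA2 and UGA1.

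Against all genes, the 3 called genes lie in the upper tail. In ssy1KO over wt 0.858% of genes were higher than UGA3, 3.45% higher than UGA1 and 6.65% higher than UGA2. In ssy1T9 over wt the shares were 1.07%, 5.41% and 6.79%. GAD1 had 58.7% of genes above it in ssy1KO and 27.6% in ssy1T9, and UGA4 had 73.2% and 50.7%, so both sat within the bulk. The median of the 5 genes was 0.33 in ssy1KO over wt and 0.34 in ssy1T9 over wt, beside 0.00 over all genes in both.

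**Figure D3:**
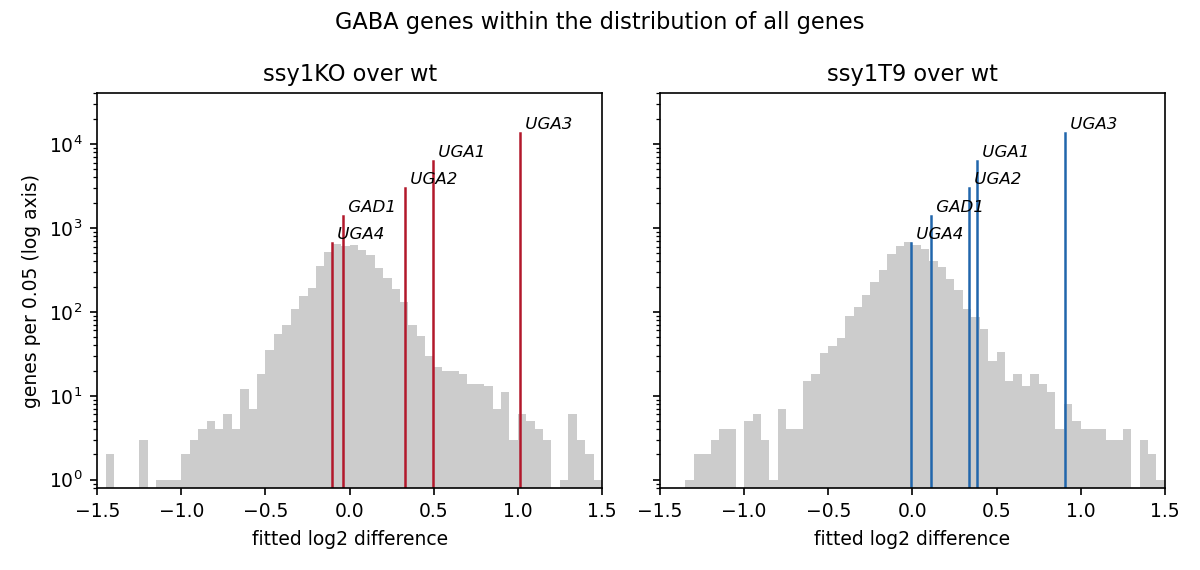
Number of genes per 0.05 of fitted log2 difference (vertical axis, log scale) in ssy1KO over wt (left) and ssy1T9 over wt (right), with a line at each of the 5 GABA genes; 38 and 34 genes beyond 1.5 in either direction are not drawn. UGA3, at 1.01 and 0.91, stands apart from UGA1 and UGA2, and UGA4 and GAD1 fall near the peak of the distribution.

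Genes of linked steps were grouped by role. Of 6 regulators of the GABA genes, 5 were higher in ssy1KO and 5 in ssy1T9, beside 13.8% and 14.1% of all genes, with medians of 0.41 and 0.42. GAT1, a GATA activator of nitrogen catabolite repressed genes, had a log2 difference of 2.22 in ssy1KO and 2.24 in ssy1T9; DAL80, a GATA repressor of the same genes, had 2.20 and 2.10. GLN3, the other GATA activator, was at 0.50 in both and GZF3, a further GATA repressor, at 0.32 and 0.35. DAL81, the partner of Uga3, was at 0.26 (SE 0.081, limma adjusted p = 0.0198) and 0.24 (SE 0.081, limma adjusted p = 0.0284). URE2, whose product holds Gln3 in the cytoplasm, was at -0.11 and -0.02 and was not called.

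Some of these regulator calls lay near the limit and were lost when an array was left out. DAL81 lost its call in ssy1KO without array 1 of ssy1T9 with wt (log2 0.22, adjusted p = 0.1), array 2 of ssy1KO with wt (0.19, adjusted p = 0.182) or array 1 of the mutant pair (0.24, adjusted p = 0.0818). In ssy1T9 DAL81 lost it without array 1 of ssy1T9 with wt (0.17, adjusted p = 0.346), array 2 of that pair (0.28, adjusted p = 0.0513) or array 2 of ssy1KO with wt (0.21, adjusted p = 0.0619). GZF3 lost its call in ssy1KO without array 1 of ssy1KO with wt (0.30, adjusted p = 0.0889). GAT1, DAL80 and GLN3 kept theirs with each of the 6 arrays left out in turn.

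GABA also enters the cell through broader permeases. GAP1, the general amino acid permease gene, was 10.99-fold higher in ssy1KO (log2 3.46, SE 0.080) and 11.3-fold higher in ssy1T9 (3.50, SE 0.080). PUT4, the proline permease gene, was at 0.34 in ssy1KO (SE 0.081, limma adjusted p = 0.0032) and at 0.10 in ssy1T9 (SE 0.081, limma adjusted p = 0.394). The difference of 0.24 between the mutants in PUT4 was not called (limma adjusted p = 0.606), and its call in ssy1KO was lost without array 1 of ssy1KO with wt (0.35, adjusted p = 0.0599). Of the 3 permease genes whose products carry GABA, GAP1 was thus called higher in both mutants, PUT4 in ssy1KO and UGA4 in neither. Without centring of the arrays PUT4 was also called in ssy1T9 (0.27, limma adjusted p = 0.0387).

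Glutamate feeds Gad1, and 5 genes of its synthesis, breakdown or conversion to glutamine were listed together as glutamate supply. Of these, 3 were higher in each mutant, beside 13.8% of all genes in ssy1KO and 14.1% in ssy1T9. The median of the 5 was 0.58 in both. GDH1, the NADP-dependent glutamate dehydrogenase gene, stood at 2.23 in ssy1KO and at 2.37 in ssy1T9. GLN1, the glutamine synthetase gene, was at 1.16 and 0.80 (SE 0.12). GLN1 lost its call under robust moderation of variances (limma adjusted p = 0.0543 in ssy1KO and 0.12 in ssy1T9) and without moderation (adjusted p = 0.14 and 0.203). The difference of 0.36 between the mutants in GLN1 was not called (limma adjusted p = 0.607). It was called only without array 2 of ssy1T9 with wt. GLT1, the glutamate synthase gene, was at 0.58 in both (SE 0.079). GDH2, the NAD-dependent enzyme that breaks glutamate down, lay at -0.19 in ssy1KO (limma adjusted p = 0.0775) and -0.12 in ssy1T9 (limma adjusted p = 0.279). GDH3, a second NADP-dependent form, lay at -0.08 and 0.05 and was not called.

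The citric acid cycle steps that the shunt bypasses, with the succinate dehydrogenase that takes its product, were measured as 9 genes. Of these 2 were higher in ssy1KO and 1 in ssy1T9, beside 13.8% and 14.1% of all genes, with medians of 0.06 and 0.10, and 0 were lower, with 2 and 3 of the 9 at an unadjusted p under 0.05. LPD1, the dihydrolipoamide dehydrogenase gene shared by several complexes, was at 0.26 in ssy1KO (SE 0.078, limma adjusted p = 0.0182) and 0.33 in ssy1T9 (SE 0.078, limma adjusted p = 0.00293). KGD1, a 2-oxoglutarate dehydrogenase subunit gene, was at 0.22 in ssy1KO (SE 0.077, limma adjusted p = 0.0399) and 0.16 in ssy1T9 (limma adjusted p = 0.137). In ssy1KO the call of KGD1 was lost without any array other than array 2 of the mutant pair, at values from 0.20 to 0.24 (adjusted p up to 0.224). That of LPD1 in ssy1KO was lost without either array of ssy1KO with wt, array 1 of ssy1T9 with wt or array 1 of the mutant pair, at values from 0.21 to 0.29 (adjusted p up to 0.123), and in ssy1T9 it held with each of the 6 left out. SDH3, a membrane subunit gene of succinate dehydrogenase, was at 0.09 and 0.03 and was called without array 2 of ssy1T9 with wt, at 0.23 in ssy1KO (adjusted p = 0.0495) and 0.32 in ssy1T9 (adjusted p = 0.0248). The other 6 genes lay between -0.07 (LSC2, a succinyl-CoA ligase subunit gene, in ssy1KO) and 0.18 (SDH1, the flavoprotein subunit gene of succinate dehydrogenase, in ssy1T9).

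**Figure D4:**
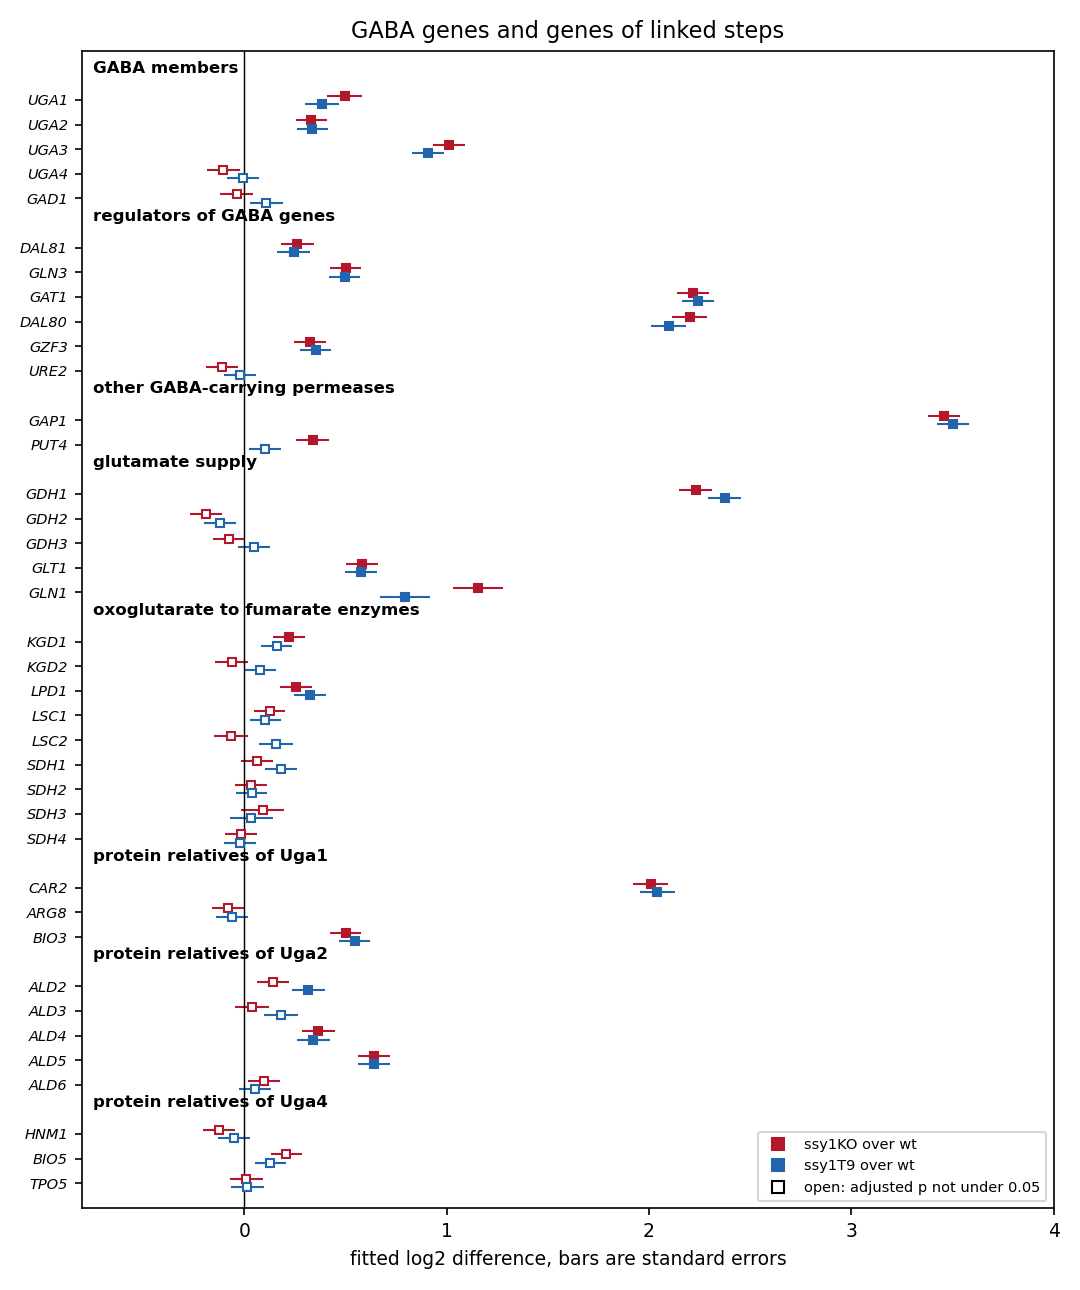
Fitted log2 difference (horizontal axis, bars are standard errors over 6 arrays) in ssy1KO over wt and ssy1T9 over wt for the 5 GABA genes and 33 genes grouped by role; filled squares have an adjusted p under 0.05. GAP1, at 3.46 and 3.50, and GAT1, DAL80 and GDH1, all between 2.10 and 2.37, lie far above UGA1, UGA2 and UGA3, and the citric acid cycle genes lie between -0.07 and 0.33.

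The position of the genes on the chromosomes was read from the R64 reference, after the values had been seen. UGA3 (YDL170W, chromosome IV) lies head to head with GLT1 (YDL171C) and tail to tail with UGX2 (YDL169C), and both of these were also higher. UGX2 read 0.73 and 1.04 in ssy1KO over wt and 0.81 and 0.66 in ssy1T9 over wt, with fits of 0.84 (limma adjusted p = 1.9e-08) and 0.78 (limma adjusted p = 6.3e-08). GLT1 read 0.43 and 0.78 in ssy1KO over wt and 0.44 and 0.67 in ssy1T9 over wt. Over the 6 arrays UGX2 correlated with UGA3 at 0.977 and GLT1 at 0.971, on Cy5 over Cy3 ratios. On that scale genes higher in both mutants correlate strongly by design, so these values do not single out neighbours. The sources used here give neither the probe sequences nor whether a spot tells the strands apart, and any part of shared signal between neighbours in these values was not tested.

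The neighbours of UGA2 were also called higher, while the measured neighbour of UGA1 was not. UGA2 (YBR006W, chromosome II) lies between RCR1, at 0.30 in ssy1KO (limma adjusted p = 0.0075) and 0.24 in ssy1T9 (limma adjusted p = 0.0269), and DSF2, at 0.38 (limma adjusted p = 0.00113) and 0.45 (limma adjusted p = 1.8e-04). The calls of DSF2 held with each of the 6 arrays left out. That of RCR1 in ssy1KO was lost without array 2 of ssy1KO with wt (0.21, adjusted p = 0.115), and in ssy1T9 it was lost without any array other than array 2 of ssy1T9 with wt, at values between 0.20 and 0.27 (adjusted p up to 0.18). VMA7, a vacuolar ATPase subunit gene beside UGA1 (YGR019W, chromosome VII), lay at 0.06 and -0.02 and was not called. Beside UGA4 (YDL210W, chromosome IV), YDL211C and the splicing factor gene CWC2 were not called, nor was GTO3, a glutathione transferase gene, beside GAD1 (YMR250W, chromosome XIII). In all, 4 of 8 measured neighbours were called higher in each mutant, beside 13.8% of all genes in ssy1KO and 14.1% in ssy1T9. GLT1 is counted here and also among the glutamate supply genes.

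**Figure D5:**
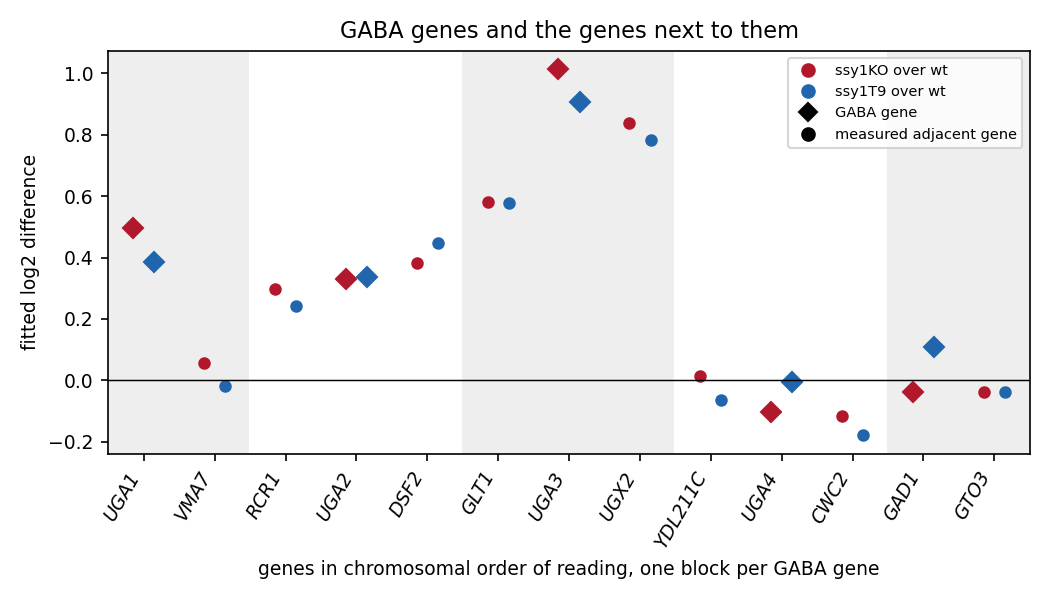
Fitted log2 difference (vertical axis) in ssy1KO over wt and ssy1T9 over wt of the 5 GABA genes (diamonds) and of the 8 measured genes next to them (circles), in blocks of adjacent genes. UGX2 and GLT1 beside UGA3, and RCR1 and DSF2 beside UGA2, lie between 0.24 and 0.84, and the neighbours of UGA1, UGA4 and GAD1 between -0.18 and 0.06.

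The genes most like each member were taken as the 3 with the smallest root mean square difference over the 6 centred log2 ratios. For UGA3 they were MET32, a zinc finger regulator gene of methionine synthesis (difference 0.089), ATG41, an autophagy gene (0.105), and RMD6 (0.147), with 1 gene of 5711 within 0.1. For UGA1 they were PEX15, a peroxisomal membrane protein gene (0.055), the kinetochore gene DAD1 (0.068) and YNR068C (0.070), with 8 genes within 0.1. UGA2 had 81 genes within 0.1, of which SNT1, a histone deacetylase complex gene, the aldose reductase gene GRE3 and JIP4 came first. UGA4 had 83 within 0.1, led by IMH1, a Golgi protein gene, HNM1, the choline permease gene, and ROT2, a glucosidase subunit gene, and GAD1 had 24, led by PBP1, TFG1 and the hexose transporter gene HXT6. The limit of 0.1 is the same for every member, so these counts depend on the size of a pattern. The root mean square of the log2 ratios was 0.79 for UGA3 and 0.39 for UGA1. It was 0.28 for UGA2, 0.19 for GAD1 and 0.17 for UGA4. The counts therefore cannot tell whether few or many genes share the shape of a pattern, which was not tested.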

How the data were processed

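The deposited table holds 1 log ratio per spot for each of 6 arrays, 7744 rows with 0 missing values; the sources used here do not state the background correction, normalization, log base or ratio direction. The values as deposited by the authors were taken as log2 of Cy5 over Cy3, uncentred per array, the sign in which SSY1 is lower in ssy1KO on all 4 arrays with that strain. This makes the direction likely but unproven: with the other sign every direction in the text turns, and with another base the folds and the 1.2-fold test differ. Per the labels, total RNA was labelled with the Genisphere 3DNA system.

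Of the rows, 6116 carry 1 gene symbol in the platform annotation, 0 several and 1628 none; 6111 were updated through the gene identifier to R64 names. Spots of a gene were averaged (5711 genes; each of the 5 described has 1 spot). Arrays were centred on the median over genes. A gene-wise linear model with a dye term and coefficients for ssy1KO and ssy1T9 was estimated from the 6 arrays together, using limma 3.58.1 under R 4.3.3 (eBayes; 3 residual and 20.7 prior degrees of freedom), two-sided, with Benjamini-Hochberg adjustment over all genes in each of the 3 comparisons; ssy1KO over ssy1T9 was taken from that fit as the difference of both coefficients. SE are of that fit. The number of arrays limits the precision (median SE 0.080). The fit was tested on simulated data. Alternatives are 14 in number: no centring, scaling, no dye term, robust or no moderation, only the arrays of the pair, every row tested, a 1.2-fold test, and each array left out. Names in the text follow a rule: the 5 genes, SSY1, the genes of lists by role, and the 3 genes most alike to each; neighbouring genes were added after the values were seen. The members and lists were chosen with earlier results of these data known. No promoter or protein sequences were used here.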

Additional observations from a re-analysis of the deposited data

How the results depend on the processing

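UGA1, UGA2 and UGA3 were called in both mutants with each of the 6 arrays left out in turn, so the count of GABA genes called was 3 in every such fit, and 0 in ssy1KO over ssy1T9. Without an array, UGA3 ran from 0.93 to 1.05 in ssy1KO and 0.86 to 0.95 in ssy1T9, UGA1 from 0.36 to 0.56 and 0.32 to 0.52, and UGA2 from 0.29 to 0.35 and 0.32 to 0.35. Some of these calls lay just under the limit. They were UGA1 in ssy1T9 without array 1 of ssy1T9 with wt (0.37) and UGA2 in ssy1KO without array 1 of ssy1KO with wt (0.34). With only the 2 arrays of the pair compared, a fit of fewer arrays, 1 of the 5 genes was called in ssy1KO (UGA3, adjusted p = 0.00762) and 0 in ssy1T9 (UGA3 adjusted p = 0.0604), with 3 at an unadjusted p under 0.05 in each. Against a 1.2-fold change 1, UGA3, was called in each mutant. Without moderation of variances UGA1 was at an adjusted p of 0.123 in ssy1KO and 0.157 in ssy1T9, and 2 genes were called in each. Without centring the median of all genes moved to 0.16 in ssy1KO and 0.17 in ssy1T9, UGA4 read 0.055 and 0.165 with no call, GAD1 read 0.12 and 0.28, and GAD1 was called in ssy1T9, making 4. No call changed direction under the 14 alternatives.

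The count of all genes called varied as well. Beside 1386 in ssy1KO and 1494 in ssy1T9, it was 1962 and 2014 without centring (1807 higher and 155 lower, and 1838 and 176, against 789 and 597, and 803 and 691), 883 and 1190 with scaling, 740 and 812 with no dye term, 265 and 283 against a 1.2-fold change, 237 and 281 without moderation, 161 and 68 with only the arrays of the pair, and from 626 to 1513 and from 793 to 1457 with an array left out. In ssy1KO over ssy1T9 it was 17, and from 0 to 20 over the alternatives. Over the 14 alternatives the number of genes called higher ran, in ssy1KO and in ssy1T9, from 2 to 5 in both for regulators, 1 to 3 and 2 to 3 for glutamate supply, 0 to 3 and 0 to 5 for the citric acid cycle steps, 1 to 2 and 0 to 2 for relatives of Uga1 (0 in ssy1T9 with only the arrays of the pair, 2 at an unadjusted p under 0.05), 0 to 4 in both for relatives of Uga2, and 0 to 1 in both for relatives of Uga4.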

Other observations

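Protein relatives of the GABA enzymes were also measured, as lists by role. Of 3 aminotransferase genes related to UGA1, 2 were higher in each mutant, beside 13.8% of all genes in ssy1KO and 14.1% in ssy1T9: CAR2, the ornithine transaminase gene of arginine breakdown, was 4.02-fold higher in ssy1KO and 4.12-fold in ssy1T9, and BIO3, of biotin synthesis, lay at 0.50 and 0.54 (limma adjusted p = 2.9e-05 and 8.2e-06). ARG8, of arginine synthesis, lay at -0.08 and -0.06 and was not called. CAR2 thus stood further from wt than UGA1, at 2.01 in ssy1KO against 0.495 for UGA1.

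Of 5 aldehyde dehydrogenase genes related to UGA2, 2 were higher in ssy1KO and 3 in ssy1T9, beside 13.8% and 14.1% of all genes. ALD5, a mitochondrial form, was at 0.64 in both, and ALD4, the other mitochondrial form, at 0.36 and 0.34. ALD4 lost its call in ssy1KO without array 1 of ssy1KO with wt (0.35, adjusted p = 0.0641) and in ssy1T9 without array 1 of ssy1T9 with wt (0.28, adjusted p = 0.104). ALD2, a cytosolic form, was at 0.14 in ssy1KO (limma adjusted p = 0.208) and 0.32 in ssy1T9 (limma adjusted p = 0.00447); its difference between the mutants, -0.17, was not called (limma adjusted p = 0.875). ALD3 was at 0.04 and 0.18 without a call. In ssy1T9 ALD3 was called without array 2 of ssy1KO with wt (0.25) or array 2 of the mutant pair (0.24). ALD6 was at 0.10 and 0.05 without a call. Without centring ALD2 (0.30, limma adjusted p = 0.0176) and ALD6 (0.255, limma adjusted p = 0.0492) were called in ssy1KO. ALD3 was then called in ssy1T9 (0.35, limma adjusted p = 0.0101). Of 3 permease genes related to UGA4 (HNM1, BIO5 and TPO5), limma called 0 in either mutant, with 1 in ssy1KO (BIO5, 0.21) and 0 in ssy1T9 at an unadjusted p under 0.05, and BIO5 was called in both mutants without centring and in ssy1KO also under robust moderation (adjusted p = 0.0493) and without moderation (adjusted p = 0.0396).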
